A study of Homo sapiens with 9 samples.

Results

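The comparison described here sets C269S against IDH1mt in U87 cells, an established human glioblastoma line, to show what changed in the transcriptome when a single cysteine of the mutant enzyme was replaced by serine. IDH1mt cells stably overexpressed isocitrate dehydrogenase 1 (IDH1) carrying the R132H change, and C269S cells overexpressed the same R132H mutant with the additional C269S change. The members were all 6 libraries of these groups, 3 per group, out of 9 in the series, and 16874 of the 58735 genes in the count table had enough counts to be tested. The other 3 libraries, from cells carrying the PCDH vector alone, entered the same fit and are shown as the reference level. The series was designed around autopalmitoylation, in which the mutant enzyme links a palmitate chain to itself. No group overexpressed IDH1 without R132H, or C269S without R132H, and gene counts pool reads of the introduced and the cell's own IDH1.

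Normal IDH1 is a cytosolic enzyme that converts isocitrate to 2-oxoglutarate while making NADPH. The R132H form, common in lower-grade glioma, instead reduces 2-oxoglutarate to 2-hydroxyglutarate, which can occupy the active site of enzymes that use 2-oxoglutarate. Among those enzymes are the EGLN prolyl hydroxylases, which mark the alpha subunits of hypoxia-inducible factor (HIF) for destruction through VHL, and the TET and KDM enzymes that demethylate DNA and histones. HIF binds a short DNA element and turns on genes for glucose uptake, glycolysis, blood vessel growth and lipid storage.

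The residues that define the mutants are shown in their reference codons, read 5′ to 3′ on the minus strand from GENCODE release 29 on GRCh38, with the codon in capitals. The R132H codon, CGT for arginine, lies at chr2:208248387-208248389 in exon 4, and the C269S codon, TGT for cysteine, lies at chr2:208242037-208242039 in exon 7 of a coding transcript with 10 exons and 414 residues. The introduced sequences themselves were not analysed here.
IDH1 codon of R132H: atcatcataggtCGTcatgcttatggg
IDH1 codon of C269S: ttcatctgggccTGTaaaaactatgat

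Levels are CPM, reads of a gene relative to the library total, after TMM scaling, which adjusts library sizes for composition, and values per library are given in the order of replicates 1, 2 and 3. A gene was called when edgeR's quasi-likelihood test gave a Benjamini-Hochberg adjusted p under 0.05, and log2 fold changes, or log2 differences, are C269S minus IDH1mt with their standard error (SE). Total counts lay between 19108925 and 24803711 per library in IDH1mt and between 19474839 and 21882833 in C269S. Levels of cell type markers given as limits or ranges, and marker sums, are instead CPM by library total alone, without TMM scaling. Of 11 listed astrocyte or glioma markers, VIM and CD44 were at or above 2631 CPM and GJA1 at or above 425 CPM in every library. GFAP lay at 2.84 to 4.26 CPM. SLC1A2, ALDH1L1 and S100B did not exceed 1.83, 0.513 and 0.32 CPM, and AQP4 had no counts. The immune markers TYROBP, C1QA, C1QB, CD3D, CD3E and MS4A1 also had none, and PTPRC did not exceed 0.366 CPM. CSF1R lay at 7.46 to 17 CPM, while CD2, CD4 and CD68 reached at most 1.57, 1.46 and 1.1 CPM. Whether replicate libraries are independent cultures, and how many lines were selected per construct, is not stated in the labels. The p-values therefore measure the spread between these libraries, and an effect of the construct cannot be told apart from one of the selected line or its culture.

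IDH1 itself, at chromosome 2, 208236227 to 208266074, served as the check of the labels. Its level was 660.2, 678 and 693 CPM in IDH1mt and 773, 724 and 718 CPM in C269S, against 112, 102 and 118 CPM in PCDH. Every C269S library was above every IDH1mt library, by a small margin, and both stood far above PCDH. The difference between the mutants did not pass the test (log2 difference 0.13, SE 0.05, adjusted p = 0.227). This level separates the overexpressing cells from the vector cells, but it cannot tell the mutants from one another. IDH2, the mitochondrial counterpart, had a log2 fold change of -0.16 and did not pass either (adjusted p = 0.156).

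The loss of the cysteine was accompanied by lower transcripts of hypoxia response and glycolysis genes and by higher transcripts of the growth factors HGF and FGF7. Of 55 matrix genes 16 rose and 6 fell, and of 21 clock genes 7 rose and 1 fell. Of the 16874 genes tested, 827 were called (4.9%), of which 387 were higher (2.29%) and 440 were lower in C269S (2.61%). Most differences were modest: the median fold among called genes was 1.3, and 22 rises and 48 falls exceeded 2-fold. The 10 largest falls among called protein-coding genes with a mean log2 CPM of at least 1, whose groups did not overlap, were in KRT81, DEPP1, HILPDA, ANGPTL4, EGLN3, CES1, SLC2A1, DDIT4L, KRT15 and S100A9. The 10 largest rises included HGF, FGF7, NR4A2, LRFN5, TIE1, RSPO3, TPPP, ESM1 and SHROOM2. Groups did not overlap for 821 of the 827 called genes, and also for 23.6% of all genes tested. Scaling by library size alone turned the balance to 523 higher and 347 lower genes, or 60.1% higher instead of 46.8%, and moved the median log2 fold change of all genes from 0.00 to 0.03. Leaving out PCDH replicate 3 raised the number of higher genes to 609, whereas leaving out IDH1mt replicates 1, 2 or 3 gave 189, 226 and 206, and leaving out C269S replicates 1 or 2 gave 207 and 240. The number of lower genes fell to 261, 288 and 266 without IDH1mt replicates 1, 2 or 3 and to 258 without C269S replicate 1.

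**Figure D1:**
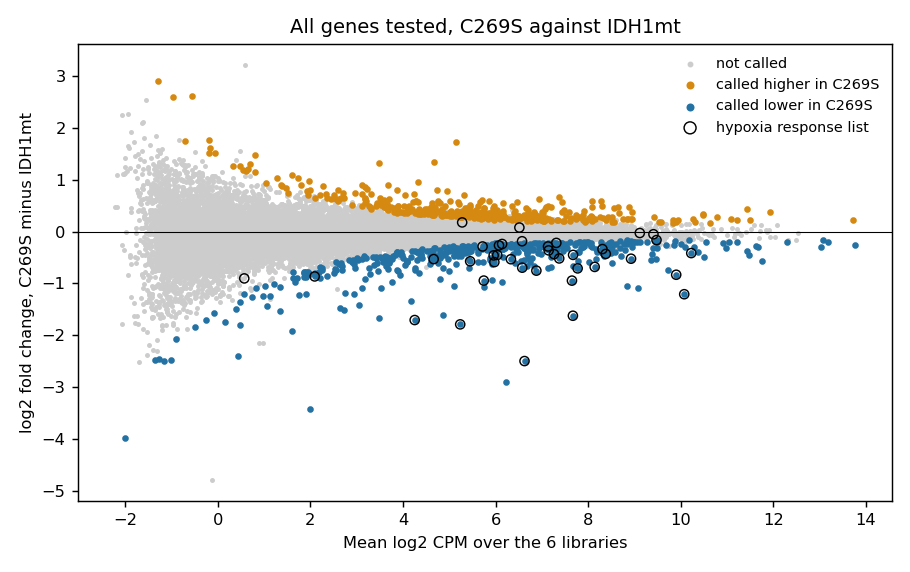
Each point is 1 gene, with the mean log2 CPM over the 6 libraries on the x axis and the log2 fold change, C269S minus IDH1mt, on the y axis. Orange and blue points are the 387 genes called higher and the 440 called lower, grey points did not pass, and black rings mark the 39 hypoxia response genes, most of which lie below 0.

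The hypoxia response list had the lowest median log2 fold change of the 32 gene lists examined. Of 39 listed genes, all of which were tested, 32 fell, 0 rose and 7 did not pass, against 2.61% of all genes called lower. That median was -0.52, against 0.00 for all genes tested. The 7 that did not pass were PDK1, VLDLR, HIF1A-AS2, CITED2, CA12, RORA and LOX. Among the falls were genes for glucose uptake, lipid storage, blood vessel growth and the feedback hydroxylases. Bulk RNA cannot tell fewer expressing cells apart from less RNA per cell.

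HILPDA, a lipid droplet protein that inhibits triglyceride breakdown (ENSG00000135245, chromosome 7, 128455849 to 128458418), had 247, 243 and 213 CPM in IDH1mt, 38.8, 40.3 and 45.7 CPM in C269S and 40.02, 44.2 and 33.98 CPM in PCDH. The groups were widely separated, C269S being 5.63-fold lower than IDH1mt (log2 difference -2.49, SE 0.08, adjusted p = 4.1e-18) and overlapping PCDH. SLC2A1, which encodes GLUT1 for basal glucose uptake (chromosome 1, 42925375 to 42959176), was at 368, 360.3 and 344 CPM in IDH1mt and 109, 111 and 129 CPM in C269S, with 92.5, 101 and 94.3 CPM in PCDH. All C269S values were far below the IDH1mt values, a 3.08-fold fall (log2 difference -1.62, SE 0.06, adjusted p = 4.1e-18), yet slightly above all PCDH values. Against PCDH, SLC2A1 in C269S was still higher (log2 fold change 0.28, adjusted p = 0.018), whereas HILPDA did not pass (log2 fold change 0.08, adjusted p = 0.785). These comparisons share the C269S libraries.

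ANGPTL4, a secreted inhibitor of lipoprotein lipase (chromosome 19, 8363289 to 8374373), had 74.9, 66.5 and 69.6 CPM in IDH1mt and 17.5, 18.7 and 24.9 CPM in C269S, with 13.1, 11 and 10.03 CPM in PCDH. C269S took an intermediate position, below every IDH1mt library (log2 difference -1.79, SE 0.11, adjusted p = 1.2e-12) and above every PCDH library (log2 fold change to PCDH 0.85, adjusted p = 6.9e-05). NDRG1, a stress-responsive differentiation gene, was at 1669, 1665 and 1582 CPM in IDH1mt and 662, 687 and 779.8 CPM in C269S, while PCDH had 692, 695 and 663 CPM. Its groups did not overlap between the mutants (log2 difference -1.21, SE 0.06, adjusted p = 2.2e-16), and C269S overlapped PCDH. VEGFA, the main angiogenic growth factor, lay at 1354, 1285 and 1191 CPM in IDH1mt and 697, 670.4 and 784 CPM in C269S, with 783, 809 and 708 CPM in PCDH. Every C269S library was below every IDH1mt library (log2 difference -0.83, SE 0.06, adjusted p = 5.7e-11).

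Further members of the list fell by less than 1 on the log2 scale. The mitophagy receptors BNIP3 and BNIP3L had log2 fold changes of -0.43 and -0.45, and the vasodilator peptide gene ADM had -0.70. MXI1, a MYC antagonist, had -0.59, and ZNF395, a zinc finger factor, had -0.94. DDIT4, an inhibitor of mTORC1, fell by 0.68 on the log2 scale, and GBE1, the glycogen branching enzyme, fell by 0.52. The smallest called falls were in CA9, a carbonic anhydrase at the cell surface (-0.22, adjusted p = 0.04), JMJD6 (-0.24, adjusted p = 0.044) and P4HA2, a collagen prolyl hydroxylase (-0.16, adjusted p = 0.044). PDK1, which restrains pyruvate entry into mitochondria, lay just outside the threshold at -0.27 (adjusted p = 0.054). Leaving out 1 library at a time gave between 27 and 34 members lower. The noncoding transcript MIR210HG, host of the hypoxia-induced miR-210, is not in the list and fell as well (log2 difference -1.34, SE 0.13, adjusted p = 1.6e-08).

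**Figure D2:**
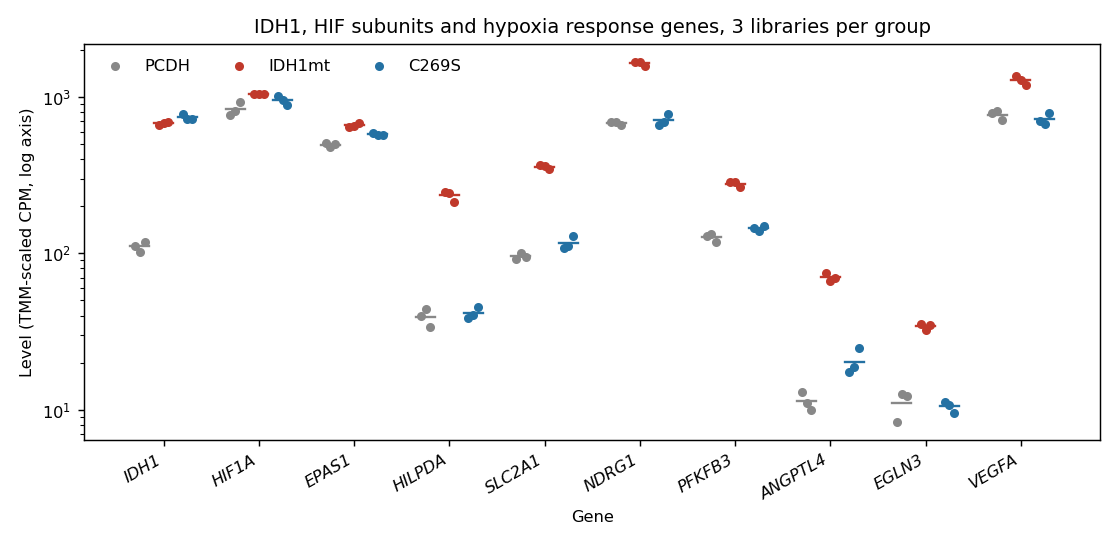
Points are single libraries and bars are group means of TMM-scaled CPM on a log axis, for IDH1, the HIF alpha subunit genes HIF1A and EPAS1, and 7 hypoxia response genes. IDH1 differs by 0.13 on the log2 scale between the mutants, while HILPDA falls from at least 213 CPM in IDH1mt to at most 45.7 CPM in C269S.

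Falls of the HIF alpha subunit transcripts were smaller than the hypoxia list median of -0.52. The smallest called falls in that list were of similar size. HIF1A, the oxygen-regulated alpha subunit, had 1047, 1035 and 1049 CPM in IDH1mt and 1019, 953 and 882 CPM in C269S. The libraries did not overlap, but the difference did not pass (log2 difference -0.13, SE 0.06, adjusted p = 0.255). EPAS1, which encodes HIF-2 alpha, had 645, 652 and 682 CPM in IDH1mt and 590.3, 568 and 573 CPM in C269S. Its groups did not overlap, and the fall was small (log2 difference -0.19, SE 0.05, adjusted p = 0.019), with the call lost in 4 of the fits that left out a library (IDH1mt replicates 1, 2 or 3 and C269S replicate 2). Of 15 subunits and regulators tested, 3 fell and 0 rose (20% called, against 4.9% of all genes tested). Besides EPAS1 these were EGLN3 and EGLN1, the prolyl hydroxylases that are themselves HIF targets and belong to the hypoxia list. EGLN3 had 35.6, 32.2 and 34.9 CPM in IDH1mt and 11.3, 10.7 and 9.60 CPM in C269S, with 8.41, 12.6 and 12.3 CPM in PCDH. C269S was 3.26-fold below IDH1mt (log2 difference -1.70, SE 0.12, adjusted p = 1.3e-11) and overlapped PCDH.

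The promoters of the hypoxia members with the lowest adjusted p that have an entry in the RefSeq promoter table (GRCh38.p14) are printed because these genes moved together and HIF recognises the core letters ACGTG or GCGTG. HILPDA has no entry. Each sequence covers 300 bases around the listed start, mostly upstream of it, 5′ to 3′ on the gene's strand, and capitals mark a match, which is shown as CACGT or CACGC where it lies on the opposite strand. SLC2A1 lies at chr1:42958819-42959118 on the minus strand, PFKFB3 at chr10:6144671-6144970 on the plus strand and ANGPTL4 at chr19:8363905-8364204 on the plus strand.
SLC2A1 promoter: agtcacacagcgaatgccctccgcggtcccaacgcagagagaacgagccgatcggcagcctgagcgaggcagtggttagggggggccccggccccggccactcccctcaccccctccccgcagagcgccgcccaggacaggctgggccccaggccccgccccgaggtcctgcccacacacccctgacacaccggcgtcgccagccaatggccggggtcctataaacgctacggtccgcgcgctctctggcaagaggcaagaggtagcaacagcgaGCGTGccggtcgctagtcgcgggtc
PFKFB3 promoter: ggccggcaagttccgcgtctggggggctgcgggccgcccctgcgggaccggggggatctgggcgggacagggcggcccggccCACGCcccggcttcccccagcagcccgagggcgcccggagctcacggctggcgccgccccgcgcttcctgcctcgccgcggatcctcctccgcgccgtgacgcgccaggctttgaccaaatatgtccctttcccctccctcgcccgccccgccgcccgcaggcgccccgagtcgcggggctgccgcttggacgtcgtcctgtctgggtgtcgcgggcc
ANGPTL4 promoter: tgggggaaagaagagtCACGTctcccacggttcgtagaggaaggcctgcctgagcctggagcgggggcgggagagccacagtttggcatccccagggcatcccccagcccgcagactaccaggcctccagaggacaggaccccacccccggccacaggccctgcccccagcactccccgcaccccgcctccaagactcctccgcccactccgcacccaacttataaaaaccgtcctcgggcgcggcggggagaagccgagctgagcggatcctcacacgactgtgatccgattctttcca

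Each of these windows holds 1 match, GCGTG in SLC2A1 and in PFKFB3 and ACGTG in ANGPTL4. Of the 39 hypoxia members, 32 matched a promoter in the table. These are not the 32 members that fell: HILPDA, NDRG1 and VEGFA fell without an entry, and members that did not pass are included. The list was chosen as hypoxia response genes, so its motif share does not tell which members moved. ACGTG on either strand occurred in 18 of the 32 windows (56.2%), against 26.4% of 11119 promoters of genes tested and 21.4% of all 35116 promoters of this length. Either ACGTG or GCGTG occurred in 26 of the 32 (81.2%), against 62.2% of the promoters of genes tested. The motifs can share letters, since ACGTG followed by CGTG also holds GCGTG and CACGTG holds ACGTG on both strands. A match describes letters in the window and not binding.

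Transcripts at the entry, along the middle and at the exit of glycolysis fell. Of 24 genes tested, 14 fell and 1 rose (62.5% called, against 4.9% of all genes tested), with a median log2 fold change of -0.30. Outside the 5 genes shared with the hypoxia list, 10 of 19 fell and 1 rose, with a median of -0.20. HK2, the hexokinase that traps glucose in the cell (chromosome 2, 74833981 to 74893359), had 797, 782 and 779 CPM in IDH1mt and 358, 366 and 382 CPM in C269S, with 290.2, 319 and 311 CPM in PCDH. C269S lay between the other groups without touching either (log2 difference -1.09, SE 0.05, adjusted p = 6.2e-16). PFKFB3, which makes the activator of phosphofructokinase (chromosome 10, 6144934 to 6254644), had 285, 284 and 266 CPM in IDH1mt, 144, 139 and 150.3 CPM in C269S and 129.7, 133 and 118 CPM in PCDH. All its C269S libraries were below all IDH1mt libraries (log2 difference -0.94, SE 0.06, adjusted p = 6.4e-13).

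SLC2A3, the glucose transporter GLUT3, fell by 0.71 on the log2 scale, and PFKFB4, a relative of PFKFB3, fell by 0.75. The enzymes ALDOA (-0.58), PGK1 (-0.39), ENO2 (-0.33), ALDOC (-0.31), GAPDH (-0.30) and ENO1 (-0.20) had smaller falls. LDHA, which reduces pyruvate to lactate, had a log2 fold change of -0.45, and the lactate exporters SLC16A1 and SLC16A3 had -0.58 and -0.47. PFKM, the muscle-type phosphofructokinase, was the single riser (0.23, adjusted p = 0.031), and it was no longer called when any 1 of the 6 IDH1mt or C269S libraries was left out.

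Several transcripts of the mitochondrial genome fell, while nuclear genes of the respiratory chain were not called in the main fit. Of 25 mitochondrial genes tested, 9 fell and 0 rose (36.0% lower), with a median log2 fold change of -0.27. Of these, 10 were transfer RNA genes. All 15 protein-coding and ribosomal RNA genes had a log2 fold change below 0 and held the 9 falls, a number that dropped to 5 without IDH1mt replicate 1 or without IDH1mt replicate 3. MT-CYB, the cytochrome b of complex III, had 786, 736 and 791 CPM in IDH1mt and 561, 553 and 589.8 CPM in C269S, with 544, 473 and 549 CPM in PCDH. The mutants did not overlap (log2 difference -0.44, SE 0.06, adjusted p = 2e-06), and C269S reached slightly above PCDH. MT-ND6 (-0.40), MT-CO3 (-0.31), MT-ND5 (-0.31) and MT-CO1 (-0.29) of complexes I and IV fell as well. The mitochondrial genome took 3.77 ± 0.04% of all counts in IDH1mt and 3.27 ± 0.08% in C269S (SD, n = 3 each), against 3.15 ± 0.22% in PCDH. The exact two-sided permutation test between the mutants gave p = 0.1, the smallest that 3 against 3 libraries allow. Of 31 nuclear respiratory chain genes, 23 had a log2 fold change below 0. The main edgeR fit and limma-voom called 0, and DESeq2 called 2 lower. In the main fit 4 had an unadjusted p under 0.05, all lower. Fitting the 6 libraries alone in edgeR called 3 lower. Leaving out PCDH replicate 3, IDH1mt replicate 2 or C269S replicate 3 gave 2, 1 and 1 lower. The mitochondrial genes have nuclear copies, and reads may be shared between them.

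**Figure D3:**
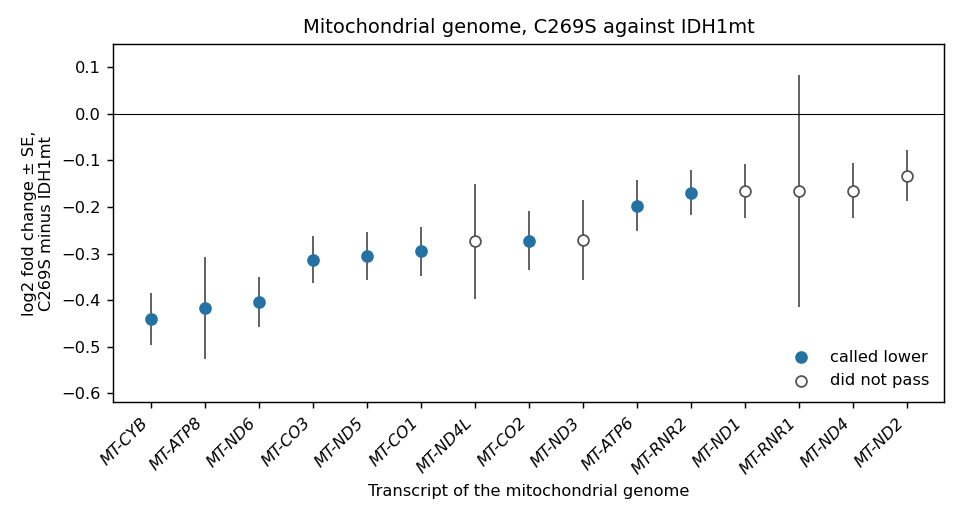
Points are the log2 fold changes, C269S minus IDH1mt, of the 15 protein-coding and ribosomal RNA genes of the mitochondrial genome, with bars for 1 SE on either side. Filled points were called lower and open points did not pass. Every point lies below 0, from -0.44 for MT-CYB to -0.13 for MT-ND2.

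Genes close to the enzyme's own chemistry differed by list. Of 28 genes of the tricarboxylic acid cycle, the IDH family and 2-hydroxyglutarate turnover, 1 fell and 0 rose (3.57% called, against 4.9% of all genes tested). Leaving out PCDH replicate 3 raised that count to 2 lower and 2 higher. Of 45 enzymes that use 2-oxoglutarate, 9 fell and 0 rose (20% called). The falls were EGLN3, EGLN1, the histone demethylases KDM3A (-0.53) and KDM4B (-0.45), the collagen hydroxylases PLOD2 (-0.42), P4HA1 (-0.34) and P4HA2, JMJD6, and TET3. Of the 37 outside the hypoxia list, 1 fell: TET3, which oxidises methylcytosine (-0.40, adjusted p = 0.015). Of 20 genes of DNA methylation and Polycomb repression, 2 rose (10% called, against 4.9% of all genes tested). They were EZH2 (0.25, adjusted p = 0.036), the histone H3 lysine methyltransferase, and its partner PHF19 (0.27, adjusted p = 0.043). Neither was called when any 1 IDH1mt library, or C269S replicate 1 or 2, was left out.

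Lipid genes had calls in both directions. The enzymes that attach and remove palmitate on proteins, the ZDHHC acyltransferases and thioesterases, had 0 of 31 members called by the main edgeR fit or limma-voom. In the main fit 4 had an unadjusted p under 0.05 (2 higher and 2 lower). DESeq2, and edgeR without PCDH replicate 3 or on the 6 libraries alone, each called 1 higher and 1 lower. Scaling by library size alone called 1 higher. Of 26 genes of fatty acid synthesis and activation, 2 fell (7.69% called, against 4.9% of all genes tested). They were SCD, which makes monounsaturated fatty acids (log2 difference -0.36, SE 0.06, adjusted p = 0.00013), and ACSL5, an acyl-CoA synthetase (-1.02, adjusted p = 0.046). ACSL5 was low, with 2.82, 2.22 and 4.82 CPM in IDH1mt and 1.58, 1.82 and 1.42 CPM in C269S. Its call was lost in 12 of 22 alternatives, among them limma-voom, library size alone and the replicate block. Without any 1 of IDH1mt replicates 1 or 3 or the C269S libraries SCD was the single member called. Of 23 lipid droplet and glycerolipid genes, HILPDA, ANGPTL4 and LPIN1, a phosphatidate phosphatase (-0.33), fell, while MGLL, which cleaves monoglycerides, rose (0.29). The share called was 17.4%, against 4.9% of all genes tested. Of 26 cholesterol genes, 2 rose and 3 fell (19.2% called, against 4.9% of all genes tested). INSIG1, which retains the sterol sensor in the endoplasmic reticulum, rose (log2 difference 0.47, SE 0.06, adjusted p = 5.9e-07). The synthesis enzymes MSMO1 (-0.24) and SQLE (-0.22) were among those that fell, and 0 or 1 member of the list was called lower without any 1 of the IDH1mt or C269S libraries, while 5 members were called lower without PCDH replicate 3 and 0 with scaling by library size alone, with no filter on low counts or with the replicate block. The sterol carrier NPC2 rose (0.26), a call lost without any 1 of these 6 libraries.

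Stress genes that lie downstream of FOXO factors or act on mTOR included the gene with the lowest adjusted p of the comparison. Of 25 tested, 5 fell and 2 rose (28% called, against 4.9% of all genes tested). DEPP1, a FOXO-induced regulator of autophagy (ENSG00000165507, chromosome 10, 44970981 to 44978810), had 213, 204 and 199 CPM in IDH1mt, 25.1, 25.2 and 32.3 CPM in C269S and 22.1, 23.7 and 22.2 CPM in PCDH. The IDH1mt libraries stood alone at a 7.45-fold higher level than C269S (log2 difference -2.90, SE 0.08, adjusted p = 5.6e-22), and C269S began just above PCDH. DDIT4L, an mTORC1 inhibitor related to DDIT4, had 52.1, 50.1 and 51.1 CPM in IDH1mt and 15.3, 17.5 and 17.5 CPM in C269S, with 15.1, 15.1 and 12.4 CPM in PCDH. Its C269S and PCDH values were close while the mutants were far apart (log2 difference -1.61, SE 0.10, adjusted p = 1.3e-13). ARRDC3, an arrestin-domain protein, and CCNG2, an atypical cyclin, fell by 0.96 and 0.40 on the log2 scale. The risers were PER1 (0.57) and TXNIP (0.19), an inhibitor of glucose uptake, and the rise of TXNIP was lost without IDH1mt replicates 1 or 3 or C269S replicate 1.

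Other stress pathways had mixed or few calls. HMOX1, which degrades haem, fell (log2 difference -0.66, SE 0.07, adjusted p = 1.9e-08), as did NQO1 (-0.26), a quinone reductase, while AKR1C2, AKR1C3 and OSGIN1 rose by 0.32 to 0.37 on the log2 scale, making 3 higher and 2 lower of 28 NRF2 and glutathione genes. The share called was 17.9%, against 4.9% of all genes tested. The number higher was 0 without IDH1mt replicate 3 and 1 without C269S replicate 3, and the number lower was 1 without any 1 IDH1mt library or C269S replicate 1. Of 28 amino acid response genes, SLC3A2, the heavy chain of amino acid exchangers, rose (0.31), while STC2 (-0.29) and SLC38A2 (-0.20) fell. That was 10.7% called, against 4.9% of all genes tested. Leaving out PCDH replicate 3 gave 2 higher and 4 lower, and 1 was lower without any 1 IDH1mt library or C269S replicates 2 or 3. Of 23 unfolded protein response genes, CREB3L2 alone rose (4.35% called, against 4.9% of all genes tested). Its call (0.19, adjusted p = 0.046) was lost without any 1 IDH1mt library or C269S replicates 1 or 2. Without PCDH replicate 3, 2 members rose and 1 fell. Of 39 cytosolic ribosomal protein genes, 33 had a log2 fold change below 0. The main edgeR fit, limma-voom and DESeq2 called 0, with 6 at an unadjusted p under 0.05 in the main fit, all lower. In edgeR 1 was lower without PCDH replicate 3, C269S replicate 2 or C269S replicate 3, and 2 were lower with the 6 libraries alone.

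**Figure D4:**
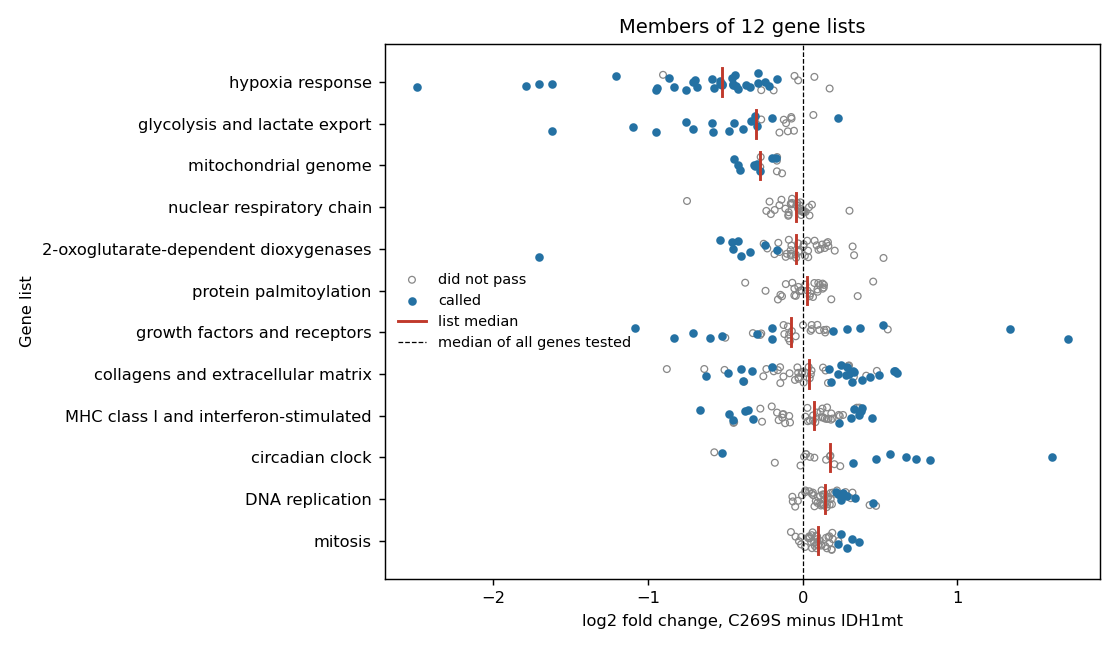
Each point is a tested member of 1 of 12 gene lists, placed by its log2 fold change, C269S minus IDH1mt, with vertical jitter for visibility. Filled points were called, open points did not pass, red bars are list medians and the dashed line is the median of all genes tested. The hypoxia response median is -0.52 and that of DNA replication is 0.14.

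Growth factor genes moved in both directions, with 6 of 36 higher and 8 lower (38.9% called, against 4.9% of all genes tested). The number lower became 5 without C269S replicate 1. HGF, which activates MET and lies on chromosome 7 at 81699008 to 81770438, showed the largest rise, with 21.3, 19.9 and 16.9 CPM in IDH1mt, 68.6, 66.2 and 56.8 CPM in C269S and 75.1, 80.9 and 90.05 CPM in PCDH. Every C269S library exceeded every IDH1mt library (log2 difference 1.72, SE 0.09, adjusted p = 1.3e-14), and all 3 remained below PCDH. FGF7, a ligand of FGF receptor 2 (chromosome 15, 49423096 to 49488775), had 15.5, 16.9 and 15.5 CPM in IDH1mt and 43.5, 42.6 and 35.3 CPM in C269S, with 37.02, 39.4 and 42.5 CPM in PCDH. C269S overlapped PCDH, and IDH1mt stood well below both (log2 difference 1.34, SE 0.10, adjusted p = 1.3e-11). RSPO3, which enhances WNT signalling, had 13.3, 15.4 and 14.4 CPM in IDH1mt and 30.4, 25.02 and 28.1 CPM in C269S, with 29.6, 32.1 and 32.4 CPM in PCDH. Its mutant libraries did not overlap (log2 difference 0.95, SE 0.10, adjusted p = 5.5e-08).

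Falls among ligands included TGFA, an EGF receptor ligand (log2 difference -0.71, SE 0.07, adjusted p = 1.3e-08), and FGF2 (log2 difference -0.52, SE 0.06, adjusted p = 2.3e-07). IGFBP5, a binding protein of insulin-like growth factors, fell by 1.09 on the log2 scale, whereas IGFBP4 rose (0.37). Among receptors, KDR, the VEGF receptor 2, rose (0.52), and PDGFRA (-0.60), NRP1 (-0.20) and EGFR (-0.19) had negative values that passed the test. FGFRL1, an FGF receptor without a kinase domain, and PDGFRB rose by 0.29 and 0.20 on the log2 scale. The FGFRL1 call was lost with the replicate block and without any 1 IDH1mt library or C269S replicate 3. The PDGFRB call was lost with DESeq2's size factors, with limma-voom, with the replicate block and without any 1 IDH1mt library or C269S replicates 1 or 3.

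Genes of immediate early response and growth factor feedback split as well, with 7 of 41 higher and 6 lower. The share called was 31.7%, against 4.9% of all genes tested. NR4A2, an orphan nuclear receptor induced by many stimuli (chromosome 2, 156324432 to 156342348), had 8.12, 6.09 and 7.02 CPM in IDH1mt and 16.8, 16.9 and 19.2 CPM in C269S, with 19.1, 23.99 and 19.3 CPM in PCDH. The mutants did not overlap (log2 difference 1.32, SE 0.13, adjusted p = 1.3e-08). EGR1 (0.56), CCND1 (0.48), the D-type cyclin, and SPRY2 (0.38), an inhibitor of receptor signalling, also rose, and 4 members in all were higher without C269S replicate 1. ERRFI1, a feedback inhibitor of the EGF receptor, had 691, 653 and 641 CPM in IDH1mt and 335, 318 and 307 CPM in C269S, with 246, 246 and 267 CPM in PCDH. C269S was intermediate between the groups without overlap (log2 difference -1.05, SE 0.05, adjusted p = 6.1e-15). The transcription factor EGR2 fell by 0.93, and DUSP1, a MAP kinase phosphatase, fell by 0.42 on the log2 scale. EPHA2 (-0.40), JUN (-0.31) and DUSP6 (-0.23) completed the falls.

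**Figure D5:**
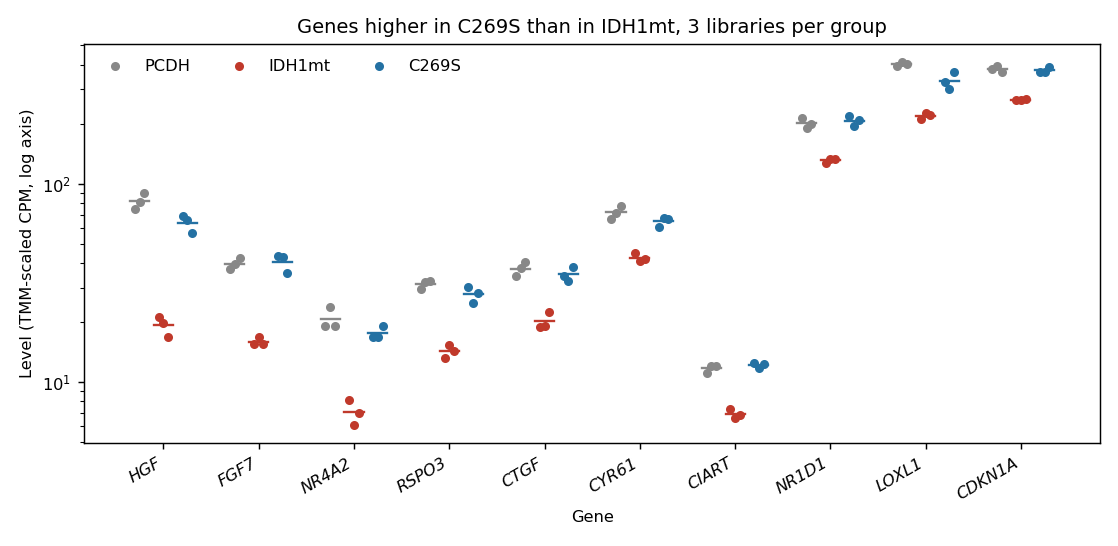
Points are single libraries and bars are group means of TMM-scaled CPM on a log axis, for 10 genes higher in C269S than in IDH1mt. For each gene every IDH1mt library lies below every C269S library, and HGF reaches at least 56.8 CPM in C269S against at most 21.3 CPM in IDH1mt.

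Matrix genes were more often higher than lower, with 16 of 55 rising and 6 falling and a median of 0.04. The share called was 40%, against 4.9% of all genes tested. LOXL1, which crosslinks elastin and collagen, had 212, 227 and 222 CPM in IDH1mt and 328, 302 and 367 CPM in C269S, with 393, 412 and 401 CPM in PCDH. C269S lay between IDH1mt and PCDH (log2 difference 0.59, SE 0.06, adjusted p = 2.5e-08). HAS2, a hyaluronan synthase (0.59), THBS1 (0.49), TNC (0.38), COL1A2 (0.33), COL6A1 (0.32) and COL1A1 (0.19) rose. The falls were EFEMP1 (-0.63), FBN1 (-0.48), LAMB3 (-0.40), MATN2 (-0.39), LAMA5 (-0.32) and LOXL2 (-0.20). The fibroblast and pericyte markers, which include 2 of these collagens, summed to 2518 to 2641 CPM in IDH1mt, 2992 to 3236 CPM in C269S and 3927 to 4191 CPM in PCDH. Of 9 such markers tested, 4 rose (COL1A1, COL1A2, PDGFRB and FAP), while THY1 did not exceed 0.605 CPM in any library. Their part in the result was not tested.

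Other surface and matrix-remodelling genes followed. Of 35 proteases and inhibitors, 8 rose and 3 fell (31.4% called, against 4.9% of all genes tested). The number higher was 5 when IDH1mt replicate 1, IDH1mt replicate 3 or C269S replicate 3 was left out. ADAMTS1, a metalloprotease of the ADAMTS family (0.62), and the inhibitor TIMP1 (0.44) rose, and the elastase inhibitor PI3 (-0.57) and TIMP2 (-0.38) fell. Of 32 integrins and adhesion genes, VCAM1, CDH13 (0.36) and NCAM1 (0.33) rose and 5 fell, among them CD24 (-0.75) and the collagen receptor subunits ITGA2 (-0.61) and ITGA11 (-0.51). The share of adhesion genes called was 25%, against 4.9% of all genes tested. Leaving out PCDH replicate 3 gave 5 higher, and leaving out IDH1mt replicate 2 or C269S replicate 1 gave 3 lower.

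YAP and TAZ, coactivators that respond to cell shape and tension, had 4 of 24 listed genes higher and 1 lower. The share called was 20.8%, against 4.9% of all genes tested. CTGF had 18.9, 19.3 and 22.7 CPM in IDH1mt and 34.5, 32.3 and 38.2 CPM in C269S, with 34.2, 37.6 and 40.4 CPM in PCDH. CYR61 had 44.6, 40.7 and 41.6 CPM in IDH1mt and 60.3, 67.5 and 66.5 CPM in C269S, with 66.7, 71.04 and 77.8 CPM in PCDH. Both secreted matricellular genes separated the mutants fully and lay near PCDH in C269S, with log2 fold changes of 0.79 (adjusted p = 8.8e-07) and 0.61 (adjusted p = 1.3e-06). FJX1 (0.30) and AMOTL2 (0.25) also rose, the AMOTL2 call being lost with the replicate block or without any 1 of the 6 IDH1mt or C269S libraries. F3, the tissue factor that starts coagulation, fell (log2 difference -0.73, SE 0.05, adjusted p = 8.9e-12). Without PCDH replicate 3, 2 members were lower. Of 34 TGF-beta and BMP genes, 3 rose and 5 fell (23.5% called, against 4.9% of all genes tested). ID3 (0.59) and ID4 (0.81) were among the risers, while ID2 (-0.40), SMAD3 (-0.36), TGFBR1 (-0.32) and ID1 (-0.21) were among those that fell. The ID genes, inhibitors of helix-loop-helix factors, thus moved in opposite directions.

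Inflammatory genes were called in both directions, 7 of 42 higher and 6 lower (31% called, against 4.9% of all genes tested). VCAM1, an adhesion molecule for leukocytes, was low, with 0.842, 0.906 and 1.29 CPM in IDH1mt and 2.96, 1.92 and 3.45 CPM in C269S, and its groups did not overlap (log2 difference 1.47, SE 0.31, adjusted p = 0.0025). The chemokines CXCL1 (0.56) and CCL2 (0.54) and the apoptosis inhibitor BIRC3 (0.49) rose. TNFAIP2 (-0.51), CCL20 (-0.47), IL1A (-0.42), IL6 (-0.40), IL11 (-0.25) and CXCL3 (-0.22) fell. The number higher was 4 without IDH1mt replicate 2, C269S replicate 1 or C269S replicate 2.

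In the antigen presentation and interferon list, 7 of 50 genes rose and 6 fell (26% called, against 4.9% of all genes tested). The risers all belong to the class I pathway, which presents peptides from inside the cell, among them HLA-B (0.45), HLA-C (0.31), B2M (0.23), TAP1 (0.36), PSMB8 (0.37) and NLRC5 (0.33). HLA-B had 312, 333 and 329 CPM in IDH1mt, 419, 446 and 463 CPM in C269S and 452, 486 and 443 CPM in PCDH, the mutants being apart and C269S near PCDH. The 6 genes that fell all belong to the class II pathway, which presents peptides taken up from outside: HLA-DRA, CD74 (-0.48), HLA-DPB1 (-0.45), CIITA (-0.37), HLA-DRB1 (-0.35) and HLA-DPA1 (-0.32). HLA-DRA had 145, 141 and 141 CPM in IDH1mt, 89.3, 90.7 and 89.3 CPM in C269S and 76.6, 84.1 and 90.4 CPM in PCDH, so that IDH1mt stood alone (log2 difference -0.66, SE 0.06, adjusted p = 1.2e-08). This division into class I and class II was made after the values were seen. The HLA genes are close copies of one another, so reads may be divided among them. The number higher was 3 without IDH1mt replicate 1 and 4 without IDH1mt replicate 3 or C269S replicate 3. Microglia and macrophage markers summed to 14.8 to 18.1 CPM in IDH1mt and 11.1 to 13.8 CPM in C269S. CSF1R made up most of that sum and fell (-0.53, adjusted p = 0.012), a call lost without IDH1mt replicates 1 or 3 or C269S replicates 1 or 2, while TYROBP, C1QA and C1QB were at 0 in every library and AIF1 did not exceed 0.137 CPM. Of the 10 markers, 3 had no counts and 2 could be tested, and their part in the result was not tested.

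The circadian clock list had 7 of 21 genes higher and 1 lower (38.1% called, against 4.9% of all genes), with a median of 0.18. NR1D1, the clock repressor REV-ERB alpha (chromosome 17, 40092787 to 40100725), had 127, 134 and 133 CPM in IDH1mt and 219.5, 197 and 209 CPM in C269S, with 214, 193 and 201 CPM in PCDH. C269S and PCDH shared a range that IDH1mt did not reach (log2 difference 0.67, SE 0.06, adjusted p = 1.8e-09). CIART, a repressor of the clock, had 7.28, 6.59 and 6.86 CPM in IDH1mt and 12.5, 11.9 and 12.4 CPM in C269S, with 11.2, 12.1 and 12.1 CPM in PCDH. The pattern was the same as for NR1D1, with no overlap between the mutants (log2 difference 0.82, SE 0.13, adjusted p = 5.9e-05). DBP (0.73), PER1, BHLHE41 (0.47) and CRY2 (0.33) also rose, while BHLHE40 (-0.52), which is also in the hypoxia list, fell. HLF was called higher (1.61), but it did not meet the rule on level and overlap set for the largest rises. The time of harvest is not given in the labels.

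Replication and mitosis genes had mostly small positive values. Of 49 replication genes, 7 rose and 0 fell (14.3% called, against 4.9% of all genes tested). In that list 44 values were above 0, and the median was 0.14. PCNA, the polymerase clamp (0.34), the helicase subunits MCM3 (0.29), MCM5 (0.26), MCM6 (0.25) and MCM7 (0.23), and the factors E2F1 (0.22) and E2F8 (0.46) were the risers. That count was 3, 2 and 3 without IDH1mt replicates 1, 2 and 3, and 2 without C269S replicate 2. Of 40 mitosis genes, 5 rose and 0 fell (12.5% called, against 4.9% of all genes tested). The risers were CDC25B (0.36), CDK1 (0.32), AURKB (0.29), TOP2A (0.25) and FOXM1 (0.23). That count was 2 without IDH1mt replicate 1 or C269S replicate 1, and 3 without IDH1mt replicate 3, C269S replicate 2 or C269S replicate 3. The cell-cycle inhibitor CDKN1A, a p53 target, had 264, 264 and 268 CPM in IDH1mt and 367, 368 and 390.3 CPM in C269S, with 378, 394 and 368 CPM in PCDH, a rise with no overlap (log2 difference 0.50, SE 0.05, adjusted p = 5.5e-08). PLK2 (0.39), FAS (0.40) and RRM2B (0.35) rose and CDKN1B (-0.32) fell, making 4 higher and 1 lower of 24. The share called was 20.8%, against 4.9% of all genes tested. The number higher was 2 without any 1 IDH1mt library or C269S replicates 1 or 2.

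Several of the largest falls lay outside metabolism. KRT81, a hair-type keratin (ENSG00000205426, chromosome 12, 52285913 to 52291534), had 12.9, 12.5 and 12.8 CPM in IDH1mt, 1.63, 0.861 and 1.06 CPM in C269S and 0.934, 0.801 and 0.71 CPM in PCDH. The IDH1mt libraries were about equal and C269S was 10.7-fold lower (log2 difference -3.42, SE 0.22, adjusted p = 6.4e-13), although KRT81 has near-identical neighbours that could share its reads. Of 17 listed keratin and S100 genes, KRT81, S100A9, S100A8, S100A3 and S100A10 fell and 0 rose. The share called was 29.4%, against 4.9% of all genes tested, and the number lower was 3 without IDH1mt replicate 3. S100A9, a calcium-binding protein of inflammation, had 9.97, 8.85 and 12.6 CPM in IDH1mt and 2.65, 4.31 and 4.32 CPM in C269S, with 1.57, 1.43 and 1.64 CPM in PCDH. C269S was intermediate (log2 difference -1.47, SE 0.19, adjusted p = 3.4e-06). Of the epithelial markers, CLDN4 lay at 2.33 to 4.3 CPM and KRT8 at 1.91 to 3.41 CPM. EPCAM did not exceed 1.44 CPM, KRT18 0.541 CPM, KRT19 0.242 CPM and CDH1 0.137 CPM. The list summed to 6.16 to 7.94 CPM in IDH1mt and 6.75 to 8.18 CPM in C269S. CES1, a carboxylesterase, fell from 20.3, 20.1 and 19.5 CPM to 5.61, 5.93 and 7.21 CPM, which overlaps the 7.28, 6.87 and 6.43 CPM of PCDH (log2 difference -1.67, SE 0.13, adjusted p = 8.7e-11). KRT15, a keratin outside that list, had 10.02, 10.99 and 12.2 CPM in IDH1mt and 3.73, 4.76 and 3.17 CPM in C269S (log2 difference -1.51, SE 0.17, adjusted p = 2.9e-07).

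Of 24 glioma stem cell and neural progenitor genes tested, EZH2 rose, and SOX9 (-0.38) and MSI2 (-0.26) fell. That was 12.5% called, against 4.9% of all genes and 214 of the 937 genes in all lists. The number lower was 1 without any 1 IDH1mt library or C269S replicates 2 or 3, and 0 without C269S replicate 1.

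Across all genes, C269S and PCDH differed in fewer genes than C269S and IDH1mt did, 239 (1.42%) against 827 (4.9%), though these comparisons share the C269S libraries and the difference between the counts was not tested. Together the lists held 937 different genes that were tested, and 214 of these were called. The lists were chosen with earlier results of these data known, so a share above 4.9% does not by itself single out a list. By biotype, 774 of 13361 protein-coding genes, 21 of 887 lincRNA genes and 12 of 1091 antisense genes were called. Among long noncoding RNAs, LUCAT1, a stress-responsive transcript, fell (log2 difference -0.67, SE 0.06, adjusted p = 1.4e-09), and AC117402.1 (0.80) and LINC01060 (0.57) rose.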

How the data were processed

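RNA was sequenced from 9 libraries of U87 cells, 3 per group, grouped by their labels; the columns of the deposited tables were matched to samples by name alone. The authors deposited raw counts of reads for each gene, and a second deposited table holds FPKM values, which the authors scaled by gene length and depth. Per the submitters' processing notes, HISAT2 version 2.0.5 and featureCounts version 1.5.0-p3 were used on GRCh38 (hg38). The strand setting is not given in the sources used here, so reads of overlapping or antisense genes cannot be separated.

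Genes were kept by edgeR's filterByExpr, scaled by TMM and tested with the quasi-likelihood F test (robust) in edgeR 4.0.16 under R 4.3.3, with all 9 libraries in 1 fit and a mean per group. Benjamini-Hochberg adjustment ran over 16874 genes. The SE was recovered from the size of the log2 fold change and the root of its F statistic. Levels are TMM-scaled CPM computed from the counts, except that limits and ranges of cell type markers and marker sums are CPM without TMM scaling. The test was tested on simulated data, drawn from the fitted trend of the spread. Those data leave out spread particular to single genes or single libraries, so they do not show how the test handles it.

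The comparison, the gene lists and the rule for named genes were chosen with earlier results of these data known. Named genes were IDH1, IDH2, HIF1A and EPAS1, then, among called protein-coding genes with non-overlapping groups and a mean log2 CPM of at least 1, up to 10 largest rises and falls and up to 5 lowest adjusted p in each direction. To these were added up to 6 called members per list with the lowest adjusted p, a called member moving against most others, and up to 2 long noncoding RNAs in each direction. Further list members were named after their values were seen. A few of the genes chosen this way are not reported here. Alternatives were other scalings and filters, the 6 libraries alone, a replicate block, each library left out, no mitochondrial genome, stricter calls, DESeq2 1.42.0, limma-voom (limma 3.58.1) and limma on log2 FPKM plus 1 or 0.1.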

Additional observations from a re-analysis of the deposited data

How the results depend on the processing

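The main counts were 387 higher and 440 lower genes. Fitting the 6 libraries alone gave 585 higher and 647 lower. A test against a 1.5-fold change gave 5 and 27, an adjusted p under 0.01 gave 175 and 238, and limma on log2 of FPKM gave 182 and 261 with a pseudocount of 1 and 192 and 253 with 0.1. Leaving out 1 library at a time gave 189 to 609 higher and 258 to 635 lower genes. With the replicate block the counts were 276 higher and 329 lower, of which 275 and 327 were among the main calls. The labels do not say whether the numbers pair the samples. Same-numbered IDH1mt and C269S libraries had correlations of deviations of -0.02, 0.00 and 0.02. For same-numbered PCDH and C269S libraries they were -0.07, -0.16 and -0.46, and PCDH replicate 2 with C269S replicate 3 had 0.34. These values do not settle how the libraries were prepared. DESeq2 gave 450 and 517, and limma-voom 343 and 438. IDH1 was not called under any of these alternatives, with adjusted p from 0.087 to 1. Of 165 named called genes, 23 were called under every alternative run, 118 in every fit that left out a library, and 0 changed direction. The number of libraries (3 per group) and their depth (19108925 to 24803711 counts in IDH1mt and C269S) limit the precision.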

Other observations

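Some rises belonged to none of the lists that led the comparison. PPIF, the cyclophilin of the mitochondrial permeability pore, rose (log2 difference 0.59, SE 0.05, adjusted p = 8.3e-10). SHROOM2, an actin-binding protein of cell shape, rose (log2 difference 0.90, SE 0.12, adjusted p = 3.2e-06). TIE1, an endothelial receptor, had 2.65, 3.33 and 2.25 CPM in IDH1mt and 4.64, 5.01 and 6.57 CPM in C269S (0.97, adjusted p = 0.0042), a call lost without C269S replicate 3. ESM1, a secreted proteoglycan of endothelial cells, rose as well (log2 difference 0.90, SE 0.15, adjusted p = 0.00012). The endothelial markers summed to 21.9 to 23.4 CPM in IDH1mt and 25.1 to 27.9 CPM in C269S. Of 5 tested, 1 was called (KDR), and the median log2 fold change was 0.09. Across all 9 libraries KDR lay at 8.91 to 17.4 CPM, PECAM1 at 5.24 to 7.06 CPM and TEK at 3.29 to 5.73 CPM. VWF, ERG, CDH5, EGFL7 and CLDN5 did not exceed 1.68, 1.08, 0.89, 0.582 and 0.25 CPM. LRFN5, a synaptic adhesion gene, had 2.52, 2.02 and 1.55 CPM in IDH1mt and 4.75, 4.81 and 3.49 CPM in C269S (log2 difference 1.08, SE 0.23, adjusted p = 0.0038). TPPP, a tubulin-binding gene, had a log2 fold change of 0.93 (adjusted p = 0.042) and lost its call when any 1 of the IDH1mt or C269S libraries was left out.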
